A study of Mus musculus with 2 samples.

Results

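The joint and tendon progenitor genes described here are 4 genes of the joint interzone (Gdf5, Gdf6, Erg and Wnt9a) and 6 genes of the tendon lineage (Scx, Mkx, Tnmd, Egr1, Egr2 and Thbs4). They were chosen by name, and every probe set whose platform annotation gives 1 of these genes alone was taken. Of the 10 genes, 9 had such a probe set, 13 probe sets in all out of 34945 that name a single gene. Gdf6 had none and was not analysed here. The tissue was the interdigital region of the mouse hind limb at stage E13.5 (mid-gestation), dissected as the pieces that the labels call ID2 and ID3. A wild-type group on B6 was compared with a group homozygous for Hammer toe, a mutation that leaves the digits webbed. Each group had 1 Affymetrix array, on which a transcript is read by sets of short oligonucleotide probes. The design text speaks of 3 sets of 5 littermates, 15 embryos per genotype, and how these relate to the single array was not stated. The strain of the Hammer toe embryos is not named in the labels, so strain and genotype cannot be told apart.

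The skeleton of a digit starts as a continuous rod of cartilage that is divided when stripes of cells, the interzones, stop making cartilage and become joints. Interzone cells secrete Gdf5 and Wnt ligands and express the transcription factor Erg, while neighbouring mesenchyme that expresses Scx gives rise to tendon. Tendon cells then switch on Mkx and the Egr factors, and later the membrane protein tenomodulin (Tnmd) and matrix proteins such as thrombospondin 4 (Thbs4). The tissue between the digits borders on both, so the comparison shows how far these programmes read differently where webbing persists.

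With 1 array per genotype no test was possible, and without replicates a difference is described by its size alone. Intensities are MAS5 values on a linear scale, scaled by the authors so that both arrays had the same trimmed mean of 500.003. Values under a floor of 78.1, the median of all values, were set to the floor, and every log2 ratio is Hammer toe over wild type. A ratio with 1 array under the floor is a bound, written as "at least". Spread was read from the arrays themselves. Log2 ratios of the 18 spiked hybridisation control probe sets varied with an SD of 0.06, and probe sets of the same gene differed with an SD of 0.21. Ratios taken after raising values to the floor were also read from all named probe sets with an array over it. Of these, 95% lay within 1.59-fold where the brighter array read up to 200, within 1.45-fold from 200 to 1000 and within 1.25-fold above 1000. Bounds count at the floor, which narrows the range where probe sets are dim. These figures leave out the variation between embryos and litters. Markers of the labelled tissue were present, with all 11 interdigital mesenchyme genes above the floor, among them Hoxd13 (wild type 17291, Hammer toe 15779), Aldh1a2 (13129 and 11474) and Msx1 (13145 and 11376). In bulk tissue, fewer cells of a type and less RNA per cell cannot be told apart.

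Most members differed little between the genotypes. Of the 13 probe sets, 7 were above the floor on both arrays, 2 had 1 array under it and 4 were under it on both. This left 7 measured genes, of which 3 read higher and 4 lower in Hammer toe. Egr1 alone reached 1.5-fold, 1 gene of 7, where 3.56% of all 11621 measured genes reached that size in either direction and 2.17% did so upwards. No member reached 2-fold, against 0.37% of all measured genes. All 3 measured joint genes read lower in Hammer toe, as 48.3% of all measured genes did, and 3 of the 4 measured tendon genes read higher, as 51.7% did.

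**Figure D1:**
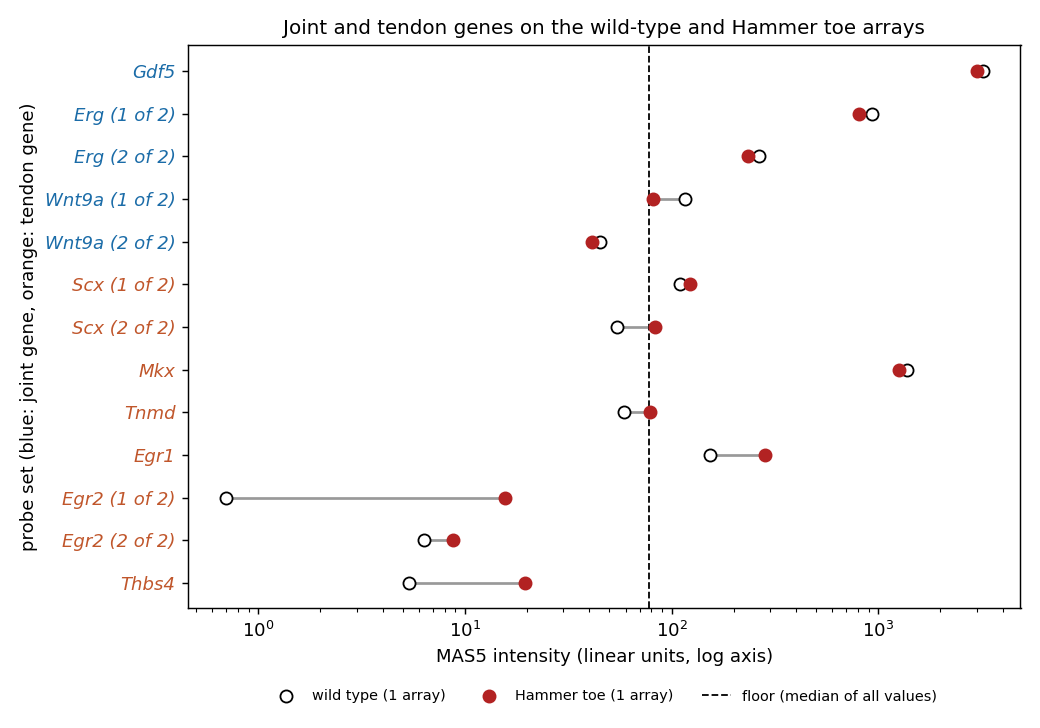
MAS5 intensity (log axis) of each of the 13 member probe sets, with 1 array per genotype (open circles, wild type; filled circles, Hammer toe) joined by a line; the dashed line is the floor of 78.1. The joint probe sets (blue labels) all have the Hammer toe point to the left of wild type, Egr1 has the most widely separated points among probe sets with both points over the floor (154 and 282), and both Egr2 probe sets and Thbs4 lie under the floor.

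Among the joint genes, Gdf5 was the most similar between the genotypes. Gdf5 is a secreted ligand of the BMP family that marks the interzone from its first appearance and is needed for several limb joints. Its probe set, 1419139_at, read 3201 on the wild-type array and 2999.8 on the Hammer toe array, which is 1.07-fold lower in the mutant (log2 ratio -0.09). Among the 6800 named probe sets of that intensity band, 23.3% lay at least as far below wild type, so the Gdf5 difference is of a size that many transcripts showed.

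Erg, an ETS transcription factor, keeps interzone and articular chondrocytes in an immature state and is also made by endothelial cells. Its probe set 1440244_at read 934 in wild type against 807 in Hammer toe, a log2 ratio of -0.21. The other, 1425370_a_at, read 265 and 234, a log2 ratio of -0.18. Both probe sets thus gave nearly the same ratio, 1.16-fold and 1.13-fold lower, and both stayed inside the range that held 95% of probe sets of their intensity. At least as far below wild type lay 15.9% and 19.3% of the 9071 probe sets of the band. Endothelial genes gave no common direction: all 15 listed were measured, 8 higher and 7 lower, with a median log2 ratio of 0.01 and a range from -0.28 to 0.55. Their summed intensity was 7816 in wild type against 8566 in Hammer toe. The largest ratios were those of Esam, Egfl7 and Tie1, at 0.55, 0.44 and 0.33, and Pecam1 was the lowest, at -0.28. Cdh5 stood at 0.02, and at 0.32 on its dimmer probe set. The part of endothelial cells in the Erg values was not tested.

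Wnt9a had the largest ratio of the joint genes. It encodes a Wnt ligand of the interzone that holds back cartilage formation there. Probe set 1436978_at read 116 on the wild-type array against 81.6 on the other, 1.42-fold lower, with a log2 ratio of -0.51. The Hammer toe value was barely above the floor. At this low intensity the ratio lay inside the range from -0.65 to 0.69 that held 95% of probe sets, and 5.64% of 5124 probe sets lay at least as far below wild type. The other Wnt9a probe set, 1425889_at, read 45.3 and 41.2, under the floor on both arrays, and gives no ratio. The lower Wnt9a level therefore rests on a single dim probe set.

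Over the 3 measured joint genes the median log2 ratio was -0.21, a 1.16-fold difference, where the median of all 11621 measured genes was 0.01. None reached 1.5-fold, against 1.39% of all measured genes at that size downwards. Cartilage markers, which the interzone borders, were lower by more. Of 16 listed, 15 were measured, 14 of them lower and 6 by at least 1.5-fold, with a median of -0.56 and a summed intensity that went from 17099 to 11178. Those 6 were Col9a3, Sox5, Col9a2, Col2a1, Sox9 and Col9a1, from -0.99 to -0.64. Of the 11 interdigital mesenchyme markers 10 read lower, from -0.41 to 0.05 with a median of -0.19, and their summed intensity was 73288 (wild type) and 65574 (Hammer toe). The joint median of -0.21 was thus close to that of the mesenchyme markers and nearer to 0 than that of the cartilage markers. The part of either tissue in the joint values was not tested.

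**Figure D2:**
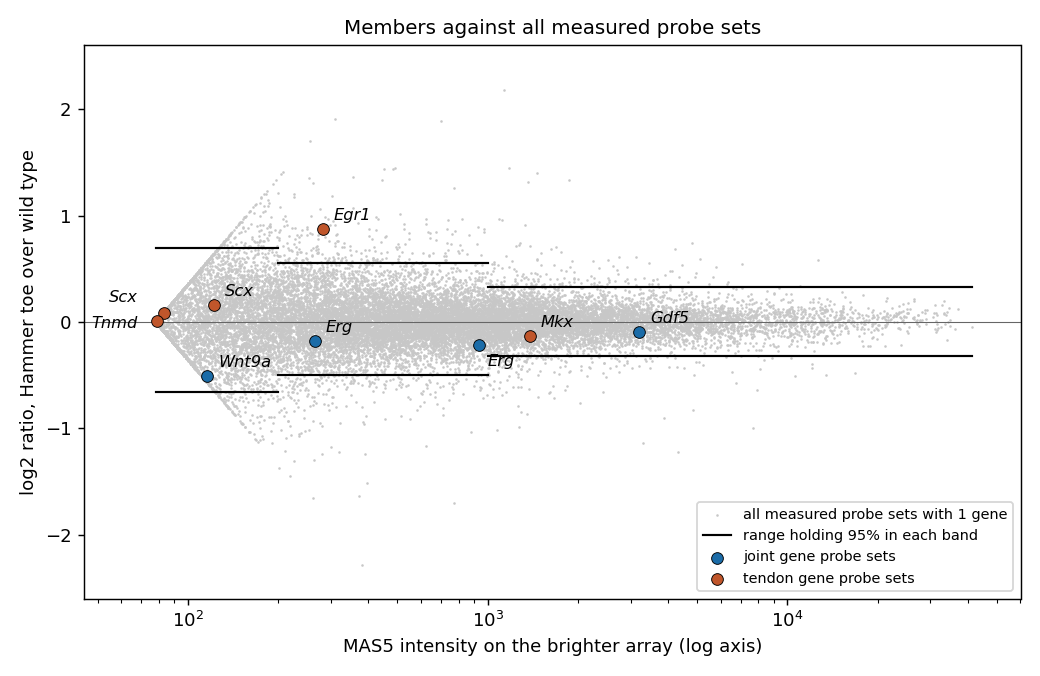
Log2 ratio of Hammer toe over wild type against the intensity of the brighter array (log axis) for all measured probe sets that name 1 gene (grey), with joint probe sets in blue and tendon probe sets in orange; black lines bound the range holding 95% of probe sets in each of the 3 intensity bands. Of the 9 measured member probe sets, only that of Egr1, at 0.87, lies outside its range, and Wnt9a, at -0.51, lies inside it.

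In the tendon lineage the early transcription factors lay near wild type. Scx (scleraxis), a basic helix-loop-helix factor, is the earliest marker of tendon progenitors. Its probe set 1428983_at read 109.7 in wild type against 122 in Hammer toe, a log2 ratio of 0.16. At least as far above wild type lay 32.0% of 5124 probe sets of that band. The second, 1456291_x_at, of a type that can bind related transcripts, read 54.7 (under the floor) in the wild type and 82.9 in the mutant, a log2 ratio of at least 0.09. Both Scx probe sets were a little higher in Hammer toe, and both were dim on either array.

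Mkx (Mohawk), a homeobox factor that directs tendon collagen genes, went the other way. It read 1385 in wild type against 1264 in Hammer toe on 1437492_at, 1.10-fold lower, with a log2 ratio of -0.13. Of 6800 probe sets in that band, 15.9% lay at least as far below wild type. Mkx and Scx thus differed in direction, each by less than the SD of 0.21 between probe sets of the same gene.

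Egr1 stood apart from the other members. It encodes a zinc finger factor that promotes collagen and Scx expression in tendon cells and that is also switched on within minutes by growth factors, stretch and handling in most cell types. Probe set 1417065_at read 154 on the wild-type array and 282 on the Hammer toe array, 1.83-fold higher, with a log2 ratio of 0.87. Only 0.529% of the 9071 probe sets in the band from 200 to 1000 lay at least as far above wild type. This was the only one of the 9 measured member probe sets outside the range of its band. It is also the only Egr1 probe set, so no other reading of the gene bears on it.

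No other early response gene read higher in Hammer toe by as much as Egr1 did on any measured probe set. Of 17 listed, 16 were measured, 7 higher and 9 lower, with a median log2 ratio of -0.03 and a range from -0.26 to 0.60. Atf3, a stress-induced factor, was the only one at 1.5-fold on its brightest probe set, 1 gene of 16 where 3.56% of all measured genes passed, reading 89.9 in wild type against 136 in Hammer toe. The brightest probe set of Klf4 gave 0.44 and a dimmer one -0.14, and the 4 probe sets of Klf6 ran from 0.17 to 0.79, with the brightest at 0.32. Fos and Junb stood at -0.13 and 0.08, and Egr3, a close relative of Egr1, read 91.0 in wild type against 11.2 in Hammer toe, at least 1.17-fold lower. The list summed to 9322 in wild type against 9342 in Hammer toe. The part of handling in the Egr1 value was not tested.

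Genes of the later tendon programme were barely read in this tissue. Tnmd, a membrane glycoprotein of maturing tendon cells, read 59.1 (under the floor) in the wild type and 78.7 in the mutant, just over it. Its ratio is at least 1.01-fold (log2 ratio 0.01), which is a bound and leaves its size unknown. Thbs4, a matrix glycoprotein of tendon and of muscle attachments, read 5.37 and 19.5. Egr2, the paralogue of Egr1, read 0.699 and 15.6 on 1427682_a_at and 6.34 and 8.77 on 1427683_at. All 4 of these probe sets read higher on the Hammer toe array, but 3 of them lay under the floor on both arrays, where MAS5 values were taken to be mostly noise, and no fold is given for them. Muscle markers, from the tissue that tendon joins to bone, were mostly dim as well: 8 of 15 were measured, 6 higher and 2 lower, with a median log2 ratio of 0.45. Myh3, Actc1 and Tnnc1 stood at 1.09, 0.97 and 0.66, 3 genes of 8 where 2.17% of all measured genes reached 1.5-fold upwards. The 2 lower genes were Myod1, at -0.23, and Des, at least 1.23-fold lower with the Hammer toe array under the floor. Pax3, Pax7 and Myf5 were under the floor, and the measured genes summed to 1298 in wild type against 1949 in Hammer toe. The part of muscle in the tendon values was not tested.

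The sequence just before the transcription start is shown for Wnt9a, the joint gene with the largest ratio, and for Tnmd and Thbs4, the late tendon genes at or under the floor. Windows from RefSeq's promoter table on GRCm38.p6 were read for 5 of the 10 genes (Egr2, Erg, Thbs4, Tnmd and Wnt9a). For each gene 1 window was taken, at its most upstream start. The search passed over 1 chromosome for the members but not for the count over all windows, and Egr1 was not among the genes read. Capitals mark the E-box, CANNTG, the hexamer bound by basic helix-loop-helix factors such as Scx, searched on both strands. The Wnt9a stretch is chr11:59306680-59306848 on the plus strand and ends before the gene's annotated start. The Tnmd stretch is chrX:133850758-133851007 on the plus strand, and the Thbs4 stretch is chr13:92794819-92795068 on the minus strand.
Wnt9a: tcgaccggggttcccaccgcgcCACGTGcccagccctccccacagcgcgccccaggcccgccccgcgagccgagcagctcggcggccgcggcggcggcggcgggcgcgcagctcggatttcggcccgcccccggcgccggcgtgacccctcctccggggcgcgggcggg
Tnmd: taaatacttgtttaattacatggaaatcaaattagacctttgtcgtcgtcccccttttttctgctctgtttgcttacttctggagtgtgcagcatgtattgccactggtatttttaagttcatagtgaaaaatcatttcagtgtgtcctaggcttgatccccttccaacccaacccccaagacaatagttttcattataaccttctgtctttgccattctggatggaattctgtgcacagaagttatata
Thbs4: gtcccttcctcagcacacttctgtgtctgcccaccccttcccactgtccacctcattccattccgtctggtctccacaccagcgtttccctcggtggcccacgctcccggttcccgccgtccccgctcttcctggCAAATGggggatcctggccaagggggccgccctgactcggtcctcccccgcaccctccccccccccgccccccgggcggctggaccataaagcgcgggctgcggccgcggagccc
In the windows of 250 bases, Wnt9a had 2 E-boxes, of which the printed stretch holds 1, Thbs4 had 1, Egr2 had 1, and Tnmd and Erg had none. The other Wnt9a E-box and that of Egr2 lay past the annotated start of their genes. An E-box occurred in 66.1% of 27025 such windows, 1 per gene, so its presence does not mark these genes. The Egr motif, searched as GCGTGGGCG and GCGGGGGCG on both strands, was in 3.04% of all windows and in none of these 5. The G and C share of the windows ran from 38.4% in Tnmd to 84.4% in Wnt9a. These matches describe letters in a short window and say nothing about binding in this tissue.

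Set side by side, the joint genes had a median log2 ratio of -0.21 over 3 genes and the tendon genes one of 0.08 over 4, a difference of -0.30. The joint genes ran from -0.51 to -0.09 and the tendon genes from -0.13 to 0.87. The groups overlapped, since Mkx at -0.13 lay between Erg at -0.21 and Gdf5 at -0.09. Egr1 carried the upper end of the tendon genes: without it, left out after its value was seen, the tendon median was 0.01, which is the bound of Tnmd, and the difference -0.22. The tendon median also depended on the floor. With no floor it was 0.64 and the difference -0.86, whereas a floor raised to the 75th percentile left Mkx alone among the tendon genes, for a median of -0.13 and a difference of -0.021. Genes are not replicates and no test was made of this difference.

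**Figure D3:**
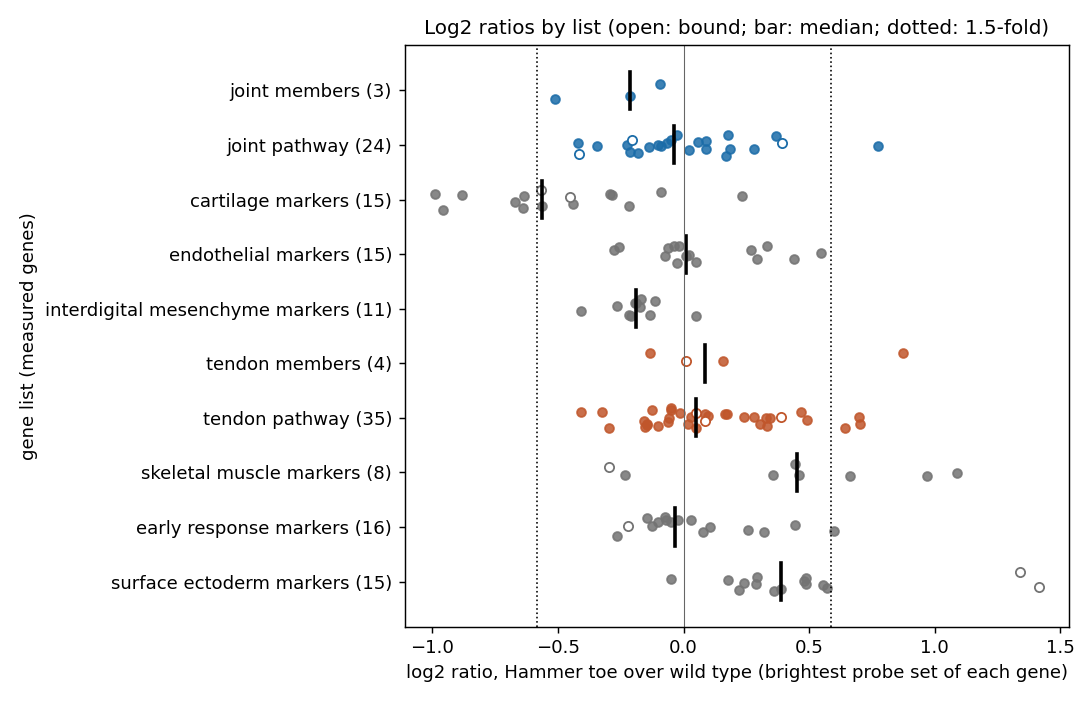
Log2 ratio of Hammer toe over wild type for each measured gene (brightest probe set) by list, with the number measured in brackets; open circles are bounds with 1 array under the floor, black bars are medians and dotted lines mark 1.5-fold. The 3 joint members lie between -0.51 and -0.09, the cartilage markers lie lower with a median of -0.56, and among the tendon members only Egr1 passes the dotted line.

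The other genes of joint formation were spread around wild type. Of 30 listed, 24 were measured, 11 higher and 13 lower, with a median log2 ratio of -0.04. With bounds counted at their bound, Osr2, a zinc finger factor of forming joints, alone reached 1.5-fold, from 240 in wild type to 410.2 in Hammer toe, a log2 ratio of 0.78. That is 1 gene of 24, near the 3.56% of all measured genes. Its relative Osr1 stood at 0.28. Creb5, a factor that promotes the articular cartilage programme, read 1738 in wild type and 1300.0 in the mutant, with log2 ratios of -0.42 and -0.49 on its measured probe sets. On the brighter one, the ratio of -0.42 lay outside the range from -0.32 to 0.33 that held 95% of probe sets above 1000. Nog, the BMP antagonist without which joints do not form, read 104 in the wild type and 60.8 (under the floor) in the mutant, at least 1.33-fold lower. Chrd, another BMP antagonist, read 48.3 (under the floor) and 102, at least 1.31-fold higher.

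The receptors through which Gdf5 signals lay within 1.14-fold of wild type on their brightest probe sets. Bmpr1b, its preferred type I receptor, read 507 in wild type against 461 in Hammer toe, a log2 ratio of -0.14. Bmpr1a, Bmpr2, Acvr2a and Acvr2b stood at -0.06, -0.05, 0.19 and -0.03. The 5 measured probe sets of Bmpr1a ran from -0.11 to 0.21, so their signs were opposed. Wnt4, which is expressed in the interzone beside Wnt9a, had probe sets with opposed signs, at -0.34 on the brighter and 0.15 on the dimmer. Wnt16, the remaining interzone Wnt ligand of the list, was under the floor on both arrays. Prg4, the lubricin gene of mature joint surfaces, was also under it.

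Among the other tendon genes, all 9 collagen chains and 2 of 8 FGF pathway genes read higher on their brightest probe sets. Of all measured genes, 51.7% read higher. These groups were formed after their values were seen, 1 of the collagen chains was a bound, and whether the groups differ was not tested. Of 41 listed, 35 were measured, 21 higher and 14 lower, with a median log2 ratio of 0.05. At 1.5-fold or more, again with bounds at their bound, stood 3 of 35, all higher, against 2.17% of all measured genes. They were Eya2, a transcriptional cofactor of limb connective tissue, from 201 to 327, Tnc, the tendon matrix glycoprotein tenascin C, from 305 to 496, and Postn (periostin), from 547 to 853. Each of these 3 rested on a single measured probe set, with log2 ratios of 0.70, 0.70 and 0.64. The lowest of the list was Epha4, from 2863 to 2155, a log2 ratio of -0.41. Its 5 measured probe sets ran from -0.41 to -0.05.

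The collagen chains of the list, grouped by role after their values were seen, all read higher on their brightest probe sets. Of these 9, 8 were above the floor on each array, and the highest was Col6a1 at 0.49, under 1.5-fold. Col14a1 read 34.3 (under the floor) and 80.8, a log2 ratio of at least 0.05, so its size is unknown. The median was 0.24 with Col14a1 at its bound. Col6a1 read 222 in wild type against 311 in Hammer toe, and Col5a2 read 6239 and 7369. Col1a1 and Col12a1, at 0.33 and 0.28, each had a second probe set of the opposite sign, at -0.27 and -0.31. The TGF-beta genes that recruit and maintain tendon progenitors were nearly level apart from 1 receptor, with Tgfb2 and Tgfb3 at 0.05 and 0.03, Tgfbr2 at -0.05 and Tgfbr1 at -0.33. The probe sets of Tgfbr1 ran from -0.33 to 0.12. Of 8 FGF pathway genes, which regulate Scx in tendon progenitors, 2 were higher and 6 lower, from -0.30 for Fgf8 to 0.47 for Etv4. Surface ectoderm markers come from another layer of the dissected tissue, and 14 of 15 read higher, at a median of 0.39. Among them Pkp1 and Krt19, both under the floor in wild type, were at least 2.66-fold and at least 2.53-fold higher, and Epcam was at 0.57 and at -0.71 on its 2 probe sets. Their summed intensity was 14153 in wild type against 18349.9 in Hammer toe, and their part in these values was not tested.

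**Figure D4:**
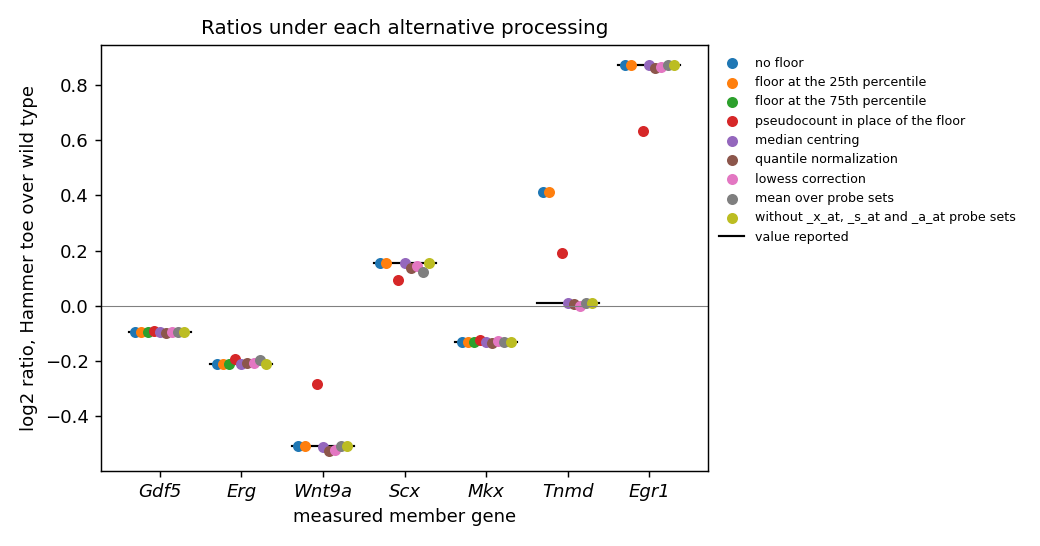
Log2 ratio of the 7 measured member genes as reported (black bars) and under each alternative processing (coloured points), on a linear axis. Gdf5, Erg and Mkx barely move, Wnt9a runs from -0.53 to -0.28, Egr1 from 0.64 to 0.87, and Tnmd from 0.00 to 0.41.

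The plot of ratios under each alternative shows that the direction of each of the 7 measured genes was the same wherever the gene was measured. Other floors and the pseudocount cannot turn the sign of a ratio, so they do not test the direction. Neither do the mean over probe sets and leaving out cross-hybridising types, since the measured probe sets of each gene shared a sign. Only the scalings could have turned a sign. The ratios of Gdf5 ran from -0.10 to -0.09, those of Erg from -0.21 to -0.19 and those of Mkx from -0.14 to -0.12, while the dimmer Wnt9a, Egr1 and Tnmd moved when low intensities were treated differently.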

How the data were processed

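RNA of hind limb interdigital tissue was measured on 1 Affymetrix array per genotype, from 250 ng of total RNA per the labels' protocols. The values deposited by the authors are linear intensities, 1 per probe set. The submitters' processing notes name MAS5 and Affymetrix Expression Console and give no versions. MAS5 scaling sets both arrays to a common level, so a shift of most transcripts one way cannot be seen, and the number of arrays limits the precision. Of 45101 probe sets, 64 controls stayed out, 34945 named 1 gene in GEO's platform annotation, 932 named several and 9160 none. Symbols were matched by gene ID to RefSeq's GRCm38.p6 table (204 probe sets had no match and kept the annotation's symbol).

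Log2 ratios were computed in Python 3.11.15 with pandas 2.3.3 after raising values to the floor, and a gene was read from its brightest probe set. The script was tested on simulated data. Members and lists were chosen with earlier results of these data known; the endothelial list and the role groups were added after seeing values. Named genes were all members and, in other lists, those at 1.5-fold or the 3 largest. Further list genes (such as receptors, ligands and collagens) were chosen after their values were seen. Alternatives were other floors, a pseudocount, 3 scalings (lowess span 0.3), the mean over probe sets, leaving out cross-hybridising probe set types, and 2-fold.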

Additional observations from a re-analysis of the deposited data

How the results depend on the processing

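The joint median ran from -0.21 to -0.15 and kept its sign under all 9 alternatives that recompute it. Only the 3 scalings could have turned that sign. Every measured joint probe set read lower in Hammer toe, which fixed the sign under the other alternatives. With no floor, the tendon median was 0.64, the joint minus tendon difference -0.86 and 3 members passed 1.5-fold. Egr2 and Thbs4, read only under the floor, then count, and Tnmd moves from 0.01 to 0.41. With the floor at the 75th percentile, an intensity of 498, only Gdf5, Erg and Mkx remained, the tendon median was -0.13, the difference -0.021 and 0 members passed. At 2-fold, and without Egr1 (chosen after seeing the data), the count was also 0. It was 1 under the remaining alternatives. No paired analysis was possible because each genotype has 1 array.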
